A study of Mus musculus with 8 samples.

Results

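The levels of 10 genes named in the literature as targets of the microRNA miR-125b, outside the genes of cell death, were followed in mouse pre-B cells: Trp53inp1, Arid3a, Abtb1, Cbfb, Ets1, Stat3, Klf13, Mknk2, Bap1 and Ppp2ca. They were taken by gene name from the non-control spots of the arrays, with every probe of each, and make up 10 of 20677 genes tested and 18 of 29811 probes kept. RNA was measured on 8 single-colour arrays of mouse 60-mer probes, 2 for each of 4 groups. The cells were of the line 1676, a pre-B line of genotype SLP-65-/- LAT-/-, so that every group, controls included, carried both deletions. They had been infected with a retroviral control vector or one that carried human hsa-miR-125b-1, selected with 1 µg/ml puromycin in medium with 7.5% FCS, and were either kept in an excess of interleukin-7 (IL-7) or deprived of it for 24 h so as to start pre-B differentiation, per the labels. The groups are thus control with IL-7, miR-125b with IL-7, control without IL-7 and miR-125b without IL-7. Per the series design, the 2 replicates came from independent experiments with separately made clones, and all of them derive from 1 cell line.

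A microRNA guides a silencing complex to messenger RNAs that pair with its seed, the bases near its 5′ end, which lowers translation and often the amount of the mRNA. In B-lineage cells IL-7 keeps pre-B cells dividing, and its loss lets them leave the cycle and rearrange the light chain genes. miR-125b is known as a microRNA of blood stem and progenitor cells that can drive leukaemia when it is raised. Its mature sequence is shown because the matches in probes described below are complementary to its seed. RefSeq (GRCm38.p6) gives the following mature sequences, written 5′ to 3′ with the seed, bases 2 to 8, in capitals.
mmu-miR-125b-5p: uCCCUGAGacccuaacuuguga
mmu-miR-125a-5p: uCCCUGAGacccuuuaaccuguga
mmu-miR-351-5p: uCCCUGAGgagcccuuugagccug
The first is encoded by Mir125b-1 on chromosome 9 and by Mir125b-2 on chromosome 16. miR-125a and miR-351 share its seed and differ after it, as do the mouse miR-6367 and miR-6394. No probe was named after either Mir125b gene (0 probes), so the level of the microRNA itself was not checked on these arrays.

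Between 47.7% and 54.8% of probes were well above background on an array, 0 spots were saturated, and replicates correlated across genes at r = 0.9942 to 0.996. Levels are log2 signal minus the log2 75th percentile of the array, and levels of different probes were not compared. The 4 arrays with IL-7 lay on slide 1 and were read with a later version of Feature Extraction than the 4 without IL-7, which lay on slide 2. Vectors were therefore compared within a slide, whereas IL-7 withdrawal cannot be told apart from slide, scan and software version. Slide 1 held control arrays in column 1 and miR-125b arrays in column 3, with replicates 1 and 2 in rows 1 and 2. Slide 2 held control arrays in columns 1 and 2 and miR-125b arrays in columns 3 and 4, all in row 1. Position and vector therefore cannot be told apart either. All 10 pre-B markers, among them Cd79a, Vpreb1 and Rag1, were well above background on all 8 arrays. The summed linear level of the list was 1350 to 1390 with miR-125b and 1390 to 1410 in controls with IL-7. Without IL-7 it was 1060 to 1070 against 1100. Single markers differed between vectors on the log2 scale. With IL-7, Il7r read 4.76 to 4.98 with miR-125b against 5.49 to 5.57 in controls, and Rag2 1.84 to 2.65 against 0.94 to 0.99. Without IL-7 they read 4.76 to 4.84 against 5.37 to 5.39, and 3.5 to 3.65 against 2.82 to 3.07. In the average miR-125b effect 6 of the 10 lay below 0. Calls were 1 lower and 1 higher, against 8.55% and 7.25% of all genes. Of the markers of other cells, 3 of 6 myeloid (Itgam, Csf1r, Elane), 3 of 6 T and NK (Cd3e, Cd4, Klrb1c), 1 of 3 measured erythroid (Klf1), 3 of 4 plasma (Sdc1, Xbp1, Prdm1) and 0 of 4 stromal markers were well above background on all 8 arrays, and Cd3g, Ncr1, Col1a1, Pdgfrb and Cxcl12 on 0. Cd8a was well above background on 0 arrays with IL-7 and on all 4 without, at log2 levels of 1.53 to 1.69. The summed level of the 6 T and NK markers was 3.62 to 3.66 with miR-125b and 4.37 to 4.44 in controls with IL-7, and 5.63 to 5.74 against 5.79 to 5.92 without IL-7. Few probes set these sums. With IL-7 the log2 level of Cd4 was 0.91 to 0.96 against 1.32 to 1.35, while Cd3e overlapped (0.52 to 0.63 against 0.60 to 0.72). Without IL-7 Cd8a, the brightest, overlapped (1.61 to 1.69 against 1.53 to 1.63). The summed level of the 4 plasma markers was 17.0 to 20.8 against 13.2 to 15.2 with IL-7, and 13.9 to 14.4 against 10.6 to 11.3 without. Xbp1 makes up most of this sum. Its log2 level was 3.94 to 4.23 against 3.55 to 3.77 with IL-7, and 3.62 to 3.66 against 3.18 to 3.31 without. Prdm1 also lay higher with miR-125b in each condition, Sdc1 overlapped between vectors, and Tnfrsf17 was well above background on only 1 array. The part of these markers in the results on the targets was not tested. Probes for Blnk, which encodes SLP-65, and Lat gave signal on all arrays and may lie outside the deleted parts, so they check nothing.

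All 18 probes of the 10 genes passed the filter on dim probes, and 17 of them were well above background on all 8 arrays. The probes of 3 genes, each with a forward reading frame free of stops, are printed to show what was hybridised for a stress gene and 2 transcription factors. The Ets1 probe lies in the part that encodes the DNA-binding ETS domain, and the Klf13 probe in the part that encodes its zinc fingers. The printed Klf13 probe is the one whose levels stand for the gene below. Those printed for Trp53inp1 and Ets1 are their second probes, and the levels given for these genes come from another probe of each. Coordinates come from the scanner files (mm9).
Trp53inp1, chr4:11092530-11092589, + strand: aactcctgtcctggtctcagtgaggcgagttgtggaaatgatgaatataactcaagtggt
Ets1, chr9:32561826-32561885, + strand: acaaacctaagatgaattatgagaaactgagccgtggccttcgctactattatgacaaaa
Klf13, chr7:71082854-71082913, - strand: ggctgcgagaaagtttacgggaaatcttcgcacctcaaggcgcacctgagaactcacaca

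Target sites pair with the seed, and 3 of the 18 probes happened to hold such a match. A site for bases 2 to 8 reads CTCAGGG, one for bases 2 to 7 followed by an A reads TCAGGGA, and the 6-base core of both is TCAGGG. The 30 bases around each match are shown with the matching bases in capitals, in mm9.
Bap1, chr14:32072880-32072909, + strand: cttgcaaggtaCTCAGGGtagggacagggt
Ppp2ca, chr11:51935908-51935937, + strand: ttgtgtttcttTCAGGGAtaccattaattt
Mknk2, chr10:80138576-80138605, - strand: aacagccgaactTCAGGGcttccaccgttc
These letters are present in 0.44%, 0.467% and 1.47% of all 55623 probes, respectively, where the 6-base core includes both longer forms. Their reverse complements are in 0.556%, 0.566% and 1.88% of all probes, and in 0 probes of the 10 genes. The 8-base form CTCAGGGA, which joins both longer sites, is in 0.122% of probes and in 0 of these 18. A match is a description of the letters in a probe, and a probe without one says nothing about the rest of the transcript.

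Cells with the miR-125b vector held less mRNA of 6 of the 10 genes than control cells in the average of both IL-7 conditions, and 0 were called higher. Of all genes, 8.55% were called lower and 7.25% higher, and the 10 genes were chosen with earlier results of these data known. The largest decreases were those of 3 genes: Trp53inp1 to 0.319 of its control level, Arid3a to 0.409 and Abtb1 to 0.442, averaged over both IL-7 conditions. Klf13 fell to 0.697, Ets1 to 0.758 and Cbfb to 0.779, and the other 4 genes, Stat3, Mknk2, Bap1 and Ppp2ca, lay between 0.809 and 0.926 of control without passing the test. The calls of Ets1 and Cbfb were lost with the median as scale and without certain single arrays. In bulk samples, fewer cells that hold an mRNA and less of it per cell cannot be told apart.

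With IL-7, 5 of the 10 genes were called lower (limma, Benjamini-Hochberg adjusted p under 0.05 over all genes) and 0 higher, against 1.46% of all genes called lower and 1.13% higher. Without IL-7, 4 were called lower and 0 higher, against 3.47% and 2.95% of all genes. In the average of both conditions, which uses 4 arrays against 4, 6 were called lower and 0 higher, against 8.55% and 7.25%. The median difference of the 10 genes was -0.39 with IL-7, -0.40 without and -0.38 in the average on the log2 scale, beside -0.04, -0.01 and -0.03 over all genes. Both miR-125b arrays lay below both control arrays for 10 of the 10 genes with IL-7 and for 9 without, against 29.9% and 31.4% of all genes. In both conditions this held for 9 genes, all but Ppp2ca, against 18% of all genes, and the opposite held for 0 of them and 14.3% of all genes. The 10 genes were chosen with earlier results of these data known. Their counts and medians, and the counts of their probes below, are thus no independent evidence of a direction. The calls within 1 IL-7 condition rested on few arrays. With IL-7 the count of 5 became 3 without control with IL-7 replicate 1 or miR-125b with IL-7 replicate 1, 2 without control with IL-7 replicate 2 or miR-125b without IL-7 replicate 1, and 1 without miR-125b with IL-7 replicate 2. It became 0 without either control array lacking IL-7 or without miR-125b without IL-7 replicate 2. Without IL-7 the count of 4 became 2 without control replicate 1 or miR-125b replicate 2 of that condition, and 0 without its miR-125b replicate 1. In the average, 6 became 4 without control replicate 1 or miR-125b replicate 1 of the condition lacking IL-7. With the number of the replicate as a block, the count with IL-7 was 3.

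**Figure D1:**
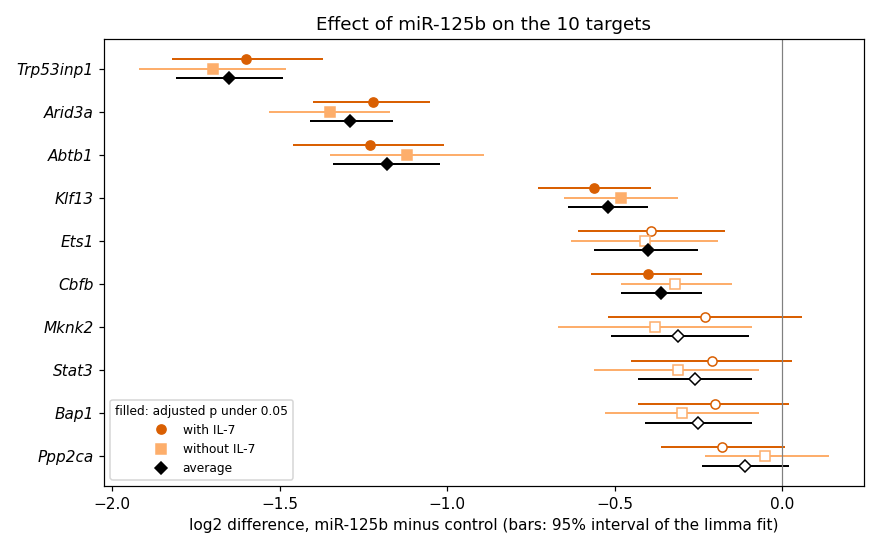
Log2 difference between miR-125b and control cells for the 10 genes (x axis), with IL-7 (circles), without IL-7 (squares) and averaged (diamonds); bars are the 95% interval of the limma fit and filled symbols have an adjusted p under 0.05. All points lie below 0, from -1.70 for Trp53inp1 without IL-7 to -0.05 for Ppp2ca without IL-7.

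Trp53inp1 encodes a nuclear protein that is induced by p53 and takes part in stress responses and autophagy. With IL-7 its log2 level was 4.15 and 4.27 on the control arrays and 2.71 and 2.53 on the miR-125b arrays. Without IL-7 it was 5.75 and 5.73 on the control arrays and 4.03 and 4.05 with miR-125b. The groups did not overlap, and with this scaling the order from low to high was miR-125b with IL-7, miR-125b without IL-7, control with IL-7 and control without IL-7, of which the middle 2 groups, not set against each other in a test, lay at means of 4.04 (SD 0.02, n = 2) and 4.21 (SD 0.08, n = 2). These 2 groups lie on different slides and their order turned with the scaling: miR-125b without IL-7 minus control with IL-7 was -0.17 here, -0.32 with the median as scale, 0.04 with normexp and 0.07 in the authors' deposited table. Trp53inp1 fell by 1.60 with IL-7 (SE 0.09, adjusted p = 0.0123), by 1.70 without (SE 0.09, adjusted p = 0.00479) and by 1.65 in the average (SE 0.06, adjusted p = 0.00127), a 3.13-fold decrease. In the average only 52 of 20677 genes, itself included, lay this low or lower. Its average difference stayed between -1.69 and -1.51 over 16 alternative settings and was called in all 16. Within a condition it was called in 12 of 17 alternatives with IL-7 and in 16 without.

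Abtb1 encodes a protein with ankyrin repeats and a BTB domain that has been linked to growth suppression. Its levels were 4.22 and 4.23 on the control arrays and 3.07 and 2.92 on the miR-125b arrays with IL-7, then 4.74 and 4.71 on control and 3.70 and 3.51 on miR-125b arrays without IL-7. The 4 groups were separate and, under each of the 4 scalings, their means were in the order miR-125b with IL-7, miR-125b without IL-7, control with IL-7, control without IL-7. The decrease was 1.23 with IL-7 (SE 0.09, adjusted p = 0.0174) and 1.12 without (SE 0.09, adjusted p = 0.00894), and the gene fell by 1.18 in the average (SE 0.07, adjusted p = 0.00222), which was also called in all 16 alternatives, whereas the difference with IL-7 was called in 9 of 17 and that without in 14.

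Arid3a, Klf13, Cbfb, Ets1 and Stat3 encode regulators of transcription. Arid3a, known as Bright, binds AT-rich DNA and acts in B-lineage cells. Its levels were 2.99 and 3.06 in control and 1.81 and 1.79 in miR-125b cells with IL-7, and 3.17 and 3.23 in control and 1.88 and 1.81 in miR-125b cells without it. Vector separated the arrays in each IL-7 condition, and with this scaling the miR-125b arrays of both conditions lay between 1.79 and 1.88. Arid3a fell by 1.22 with IL-7 (SE 0.07, adjusted p = 0.0123), by 1.35 without (SE 0.07, adjusted p = 0.00479) and by 1.29 in the average (SE 0.05, adjusted p = 0.00127). The average was called in all 16 alternatives, the difference with IL-7 in 11 of 17 and that without in 16.

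Klf13 is a zinc finger factor of the Krüppel-like family. The control arrays read 3.79 and 3.79 with IL-7 and 3.67 and 3.69 without, and the miR-125b arrays 3.27 and 3.18 with IL-7 and 3.19 and 3.20 without. The miR-125b arrays lay below the control arrays in each condition. Klf13 fell by 0.56 with IL-7 (SE 0.07, adjusted p = 0.0303), by 0.48 without (SE 0.07, adjusted p = 0.0227) and by 0.52 in the average (SE 0.05, adjusted p = 0.00458), and the average was called in all 16 alternatives. The calls within a condition held in fewer, 4 of 17 with IL-7 (adjusted p from 0.00249 to 0.191) and 8 of 17 without (adjusted p from 0.00252 to 0.213).

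Cbfb encodes the partner that stabilises the RUNX factors on DNA without binding DNA itself. It read 6.97 and 6.95 in control and 6.60 and 6.52 in miR-125b cells with IL-7, and 6.73 and 6.72 in control and 6.41 and 6.40 in miR-125b cells without IL-7. The miR-125b arrays again lay below the control arrays in each condition. Cbfb fell by 0.40 with IL-7 (SE 0.07, adjusted p = 0.047) and by 0.36 in the average (SE 0.05, adjusted p = 0.0101), while the difference of -0.32 without IL-7 did not pass (SE 0.07, adjusted p = 0.0521). The call with IL-7 held in 4 of 17 alternatives (adjusted p from 0.00996 to 0.319). The average call was lost without control replicate 1 (adjusted p = 0.0515) or miR-125b replicate 1 (adjusted p = 0.05) of the condition lacking IL-7, and with the arrays scaled to their median, where the difference was -0.22 (adjusted p = 0.153). Over all 16 alternatives its adjusted p ran from 0.001 to 0.153.

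Ets1 encodes a transcription factor that restrains the step from B cell to plasma cell. It read 4.14 and 4.13 in control and 3.78 and 3.72 in miR-125b cells with IL-7, and 4.30 and 4.37 in control and 3.82 and 4.02 in miR-125b cells without IL-7. The groups of each condition did not overlap, and the miR-125b arrays without IL-7 were the farthest apart of any group of this gene. The differences of -0.39 with IL-7 (SE 0.09, adjusted p = 0.0863) and -0.41 without (SE 0.09, adjusted p = 0.0547) did not pass within a condition, and Ets1 fell by 0.40 in the average (SE 0.06, adjusted p = 0.0146). That call was lost without control replicate 1 (adjusted p = 0.0564), control replicate 2 (adjusted p = 0.054) or miR-125b replicate 1 (adjusted p = 0.0527) of the condition lacking IL-7, and with the median as scale, where the difference was -0.26. It was also lost with no filter on dim probes, and over all 16 alternatives the adjusted p ran from 0.00146 to 0.131.

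Stat3, which carries signals of IL-6 family cytokines to the nucleus, read 3.05 and 2.88 in control and 2.85 and 2.66 in miR-125b cells with IL-7. Without IL-7 it read 2.68 and 2.71 in control and 2.40 and 2.36 in miR-125b cells. The miR-125b arrays lay below the control arrays in each condition, with IL-7 by a margin smaller than the distance between replicates. The differences were -0.21 with IL-7 (SE 0.10, adjusted p = 0.295), -0.31 without (SE 0.10, adjusted p = 0.121) and -0.26 in the average (SE 0.07, adjusted p = 0.0564), with a 95% interval of the average from -0.43 to -0.09 before adjustment.

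Mknk2 and Ppp2ca act in signalling and Bap1 on chromatin. Mknk2, a kinase that phosphorylates the cap-binding factor eIF4E, read 7.25 and 7.10 in control and 6.85 and 7.04 in miR-125b cells with IL-7, and 6.87 and 6.93 in control and 6.40 and 6.63 in miR-125b cells without. Bap1, a nuclear deubiquitinase that acts on histone H2A, read 4.62 and 4.55 in control and 4.29 and 4.47 in miR-125b cells with IL-7, and 4.30 and 4.33 in control and 3.95 and 4.08 in miR-125b cells without. Both genes had lower miR-125b arrays in each condition, and their miR-125b replicates were farther apart than their control replicates. The average difference was -0.31 for Mknk2 (SE 0.08, adjusted p = 0.0598, 95% interval from -0.51 to -0.10) and -0.25 for Bap1 (SE 0.07, adjusted p = 0.0545, 95% interval from -0.41 to -0.09), and neither passed within a condition. Ppp2ca, the catalytic subunit of protein phosphatase 2A, read 4.57 and 4.47 in control and 4.36 and 4.33 in miR-125b cells with IL-7, and 4.02 and 4.09 in control and 3.99 and 4.02 in miR-125b cells without. Its groups overlapped without IL-7. Its average difference of -0.11 (SE 0.05, adjusted p = 0.202, 95% interval from -0.24 to 0.02) did not pass, and with the median as scale it was 0.03. Stat3, Mknk2 and Bap1 were each called lower in 4 of 16 alternatives of the average and Ppp2ca in 1.

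**Figure D2:**
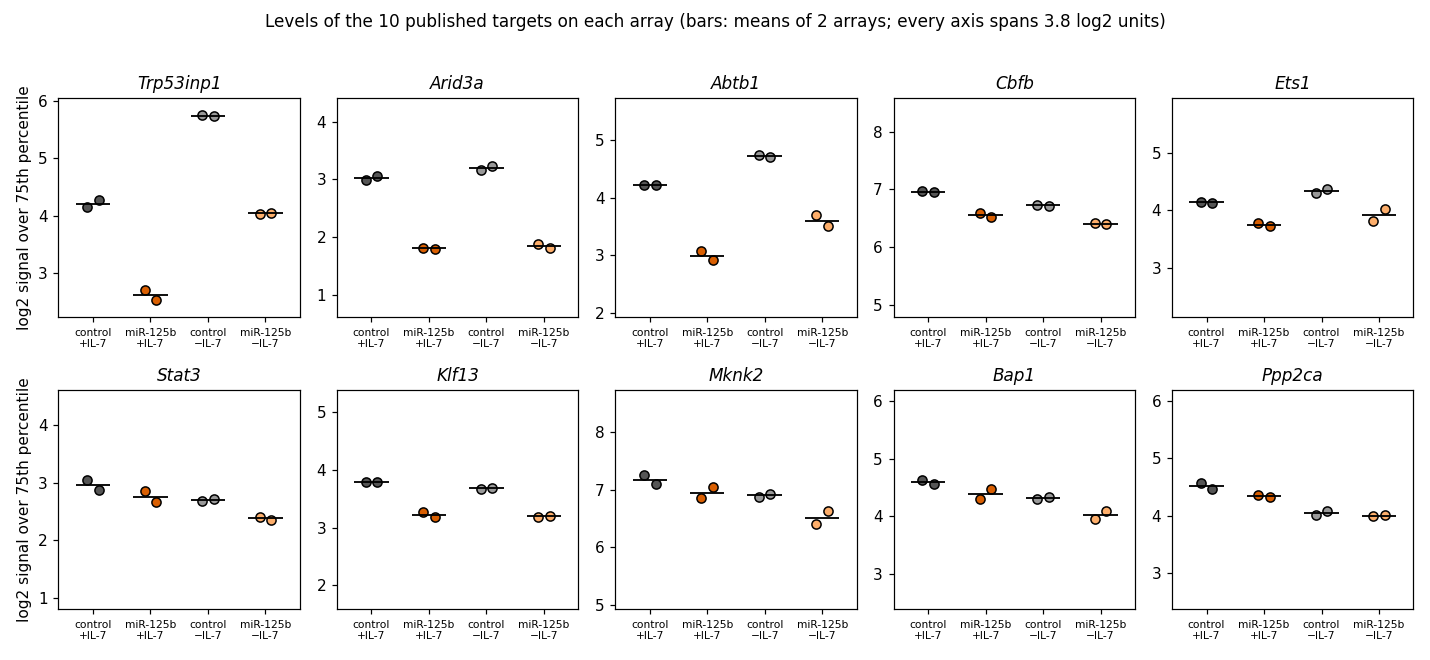
Log2 level of each gene (y axis, log2 signal over the array's 75th percentile) on each of the 8 arrays, by group (x axis); dots are arrays, bars the means of 2 arrays, and every y axis spans the same range of 3.8 log2 units. With this scaling, for Trp53inp1 and Abtb1 the arrays differ by vector and by IL-7 condition, which is also the slide. For Arid3a and Klf13 they differ mainly by vector, and for the Ppp2ca probe shown mainly by IL-7 condition. The second Ppp2ca probe, not shown, differed by vector in each condition too.

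Of the 7 genes with several probes, Trp53inp1, Arid3a and Ets1 were called lower with miR-125b on each probe in the average, and the other 4 on some or none. In a fit over all kept probes, 6 of the 18 probes were called lower with IL-7, 8 without and 11 in the average, against 0.889%, 2.54% and 7.45% of all kept probes, and the differences of all 17 probes with signal on every array lay below 0 in each of these comparisons, as did 56.5%, 51.4% and 54.6% of all kept probes. The second probe of Trp53inp1 fell by 1.40 in the average (SE 0.08, adjusted p = 0.00291), that of Arid3a by 1.41 (SE 0.07, adjusted p = 0.00265) and that of Ets1 by 0.37 (SE 0.06, adjusted p = 0.0196). A Klf13 probe that the files place on the strand opposite to its other probes fell by 0.49 (SE 0.06, adjusted p = 0.0106), and whether it reads Klf13 or a transcript of that strand is not given in the sources used here. The remaining Klf13 probe, which the files map across 32932 bases, was well above background only on the 2 miR-125b arrays without IL-7, so no fold is given for it.

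The probes of Ppp2ca disagreed. The dimmer one, which holds the polyadenylation signal letters AATAAA, read 1.70 and 1.53 in control and 1.28 and 1.23 in miR-125b cells with IL-7, and 1.22 and 1.25 in control and 0.63 and 0.78 in miR-125b cells without IL-7. Its groups were separate in each condition, unlike those of the brighter probe. It fell by 0.53 without IL-7 (SE 0.10, adjusted p = 0.0419) and by 0.45 in the average (SE 0.07, adjusted p = 0.015), beside -0.11 for the probe that represents the gene. Neither the second Mknk2 probe (-0.40, SE 0.12, adjusted p = 0.0732) nor the second Stat3 probe (-0.15, SE 0.07, adjusted p = 0.186) passed. The second Mknk2 probe and the dim Klf13 probe bear these names in 4 of the 8 files, which share 1 version of the array grid.

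**Figure D3:**
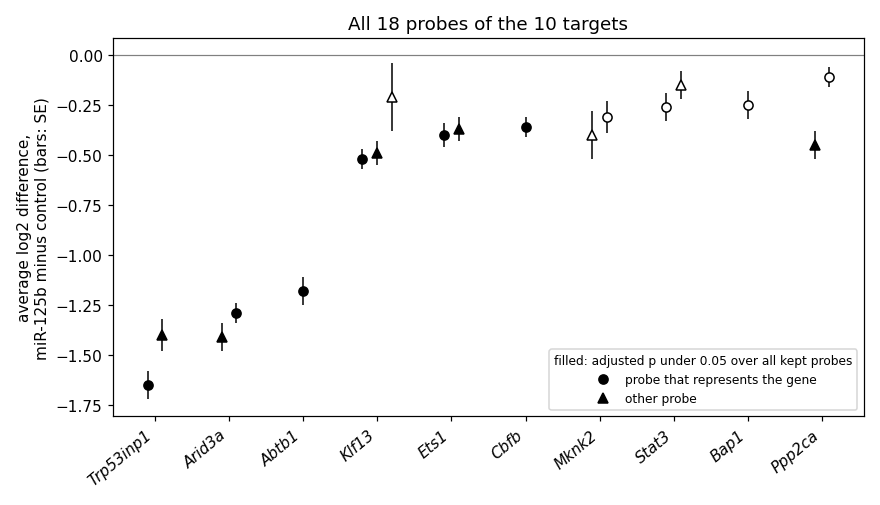
Average log2 difference between miR-125b and control cells (y axis) for each of the 18 probes, by gene (x axis); circles are the probes that represent a gene, triangles the others, bars the SE, and filled symbols have an adjusted p under 0.05 over all kept probes. Trp53inp1 and Arid3a lie near -1.65 to -1.29 with both probes, whereas the Ppp2ca probes lie at -0.45 and -0.11.

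The probes that hold a seed match were not those with the lowest differences. The Bap1 probe with a match for bases 2 to 8 had an average difference of -0.25, the Ppp2ca probe with a match for bases 2 to 7 and an A had -0.11, and the Mknk2 probe with the core had -0.40, none of them called. Trp53inp1, Arid3a and Abtb1, with the lowest values, had no match in their probes. Over all kept probes, 138 held CTCAGGG, and 15.9% of them were called lower and 2.9% higher in the average. Of 190 kept probes with the reverse complement, 5.79% were called lower and 7.37% higher, beside 7.45% and 6.46% of all kept probes. For the core TCAGGG the shares were 12.3% lower and 4.01% higher of 424 probes, and for its reverse complement 5.7% and 6.8% of 632. These shares describe the probes and were not tested.

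Withdrawal of IL-7 moved the 10 genes in different directions, and it cannot be told apart from the slide. Trp53inp1 rose 2.88-fold in control cells and 2.68-fold in miR-125b cells, by 1.53 (SE 0.09, adjusted p = 0.000816) and 1.42 (SE 0.09, adjusted p = 0.00115) on the log2 scale. Its second probe rose by 1.08 and 1.09 (adjusted p = 0.00192 and 0.00233 over all kept probes). Abtb1 rose by 0.50 in control cells (SE 0.09, adjusted p = 0.00694) and by 0.61 in miR-125b cells (SE 0.09, adjusted p = 0.00422). Both directions held under each of the 3 other scalings, but with the median as scale the Abtb1 values of 0.16 and 0.36 did not pass. Ppp2ca fell by 0.47 in control cells (SE 0.07, adjusted p = 0.0041) and by 0.34 in miR-125b cells (SE 0.07, adjusted p = 0.0126), where normexp with quantile normalization gave 0.01 for the latter.

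In all, 2 of the 10 genes were called higher and 2 lower on withdrawal in control cells, against 20% and 34.2% of all genes, and 2 higher and 4 lower in miR-125b cells, against 20.3% and 32.1%. These shares are near the background. The arrays without IL-7 lay below those with it in both vectors for 5 genes, against 41.6% of all genes, and above for 3, against 26.4%. The smaller calls depended on the scaling. Cbfb fell by 0.24 in control cells (adjusted p = 0.0284), but normexp gave 0.19 and the authors' deposited table gave 0.27. Mknk2 fell by 0.43 in miR-125b cells (adjusted p = 0.0252) and Bap1 by 0.37 (adjusted p = 0.0205), but normexp gave 0.13 and 0.01. Stat3 fell by 0.38 in miR-125b cells (adjusted p = 0.0221) and was below 0 under every scaling run, but its second probe gave 0.02 in control and 0.14 in miR-125b cells (adjusted p = 0.859 and 0.267 over all kept probes). The Ets1 probes differed in sign: the one that represents the gene gave 0.20 and 0.17 in control and miR-125b cells, not called and below 0 with the median as scale, and the second probe gave -0.20 and -0.35, the latter with an adjusted p of 0.0215 over all kept probes. The count in miR-125b cells fell from 6 to 2 without miR-125b without IL-7 replicate 1, and to 4 without the other replicate of that group or either miR-125b replicate with IL-7.

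**Figure D4:**
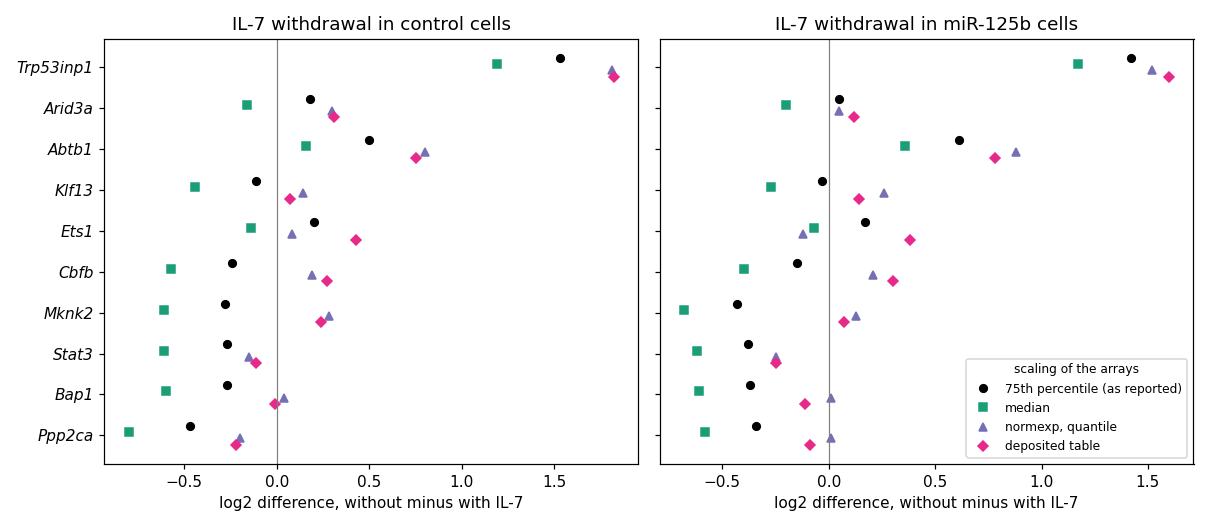
Log2 difference between cells without and with IL-7 (x axis) for each gene (y axis) in control cells (left) and miR-125b cells (right), under 4 scalings of the arrays (symbols). Trp53inp1 and Abtb1 lie above 0 under all 4, while Cbfb, Klf13 and Mknk2 lie below 0 with the 75th percentile and above 0 with normexp or the authors' deposited table.

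The effect of miR-125b was then compared between the IL-7 conditions in the same fit. For 0 of the 10 genes was a difference in response called (limma, adjusted p from 0.965 to 0.995), and the differences ran from -0.15 for Mknk2 to 0.13 for Ppp2ca. For Trp53inp1 the difference of -0.11 had a 95% interval from -0.42 to 0.21, and for Arid3a that of -0.13 had one from -0.38 to 0.12. Of all genes 0 were called, and 1216 (5.88%) had an unadjusted p under 0.05, 0 of the 10 among them. Trp53inp1 was lower with miR-125b in growing and in deprived cells, while it rose on withdrawal with either vector.

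Other published targets of miR-125b, cell death genes included, were set beside the 10. Of 40 on that list 35 were measured, and 12 were called lower and 1 higher in the average, against 8.55% and 7.25% of all genes, with a median of -0.14 beside -0.03 over all genes. The lower genes included the transcription factor Jun (-0.86, SE 0.05, adjusted p = 0.00222), the kinase Map3k11 upstream of JNK (-0.81, SE 0.05, adjusted p = 0.00234), the ubiquitin ligase Traf6 (-0.79, SE 0.07, adjusted p = 0.00413), the NF-kappaB inhibitor Tnfaip3 (-0.75, SE 0.13, adjusted p = 0.0174) and the deacetylase Sirt7 (-0.61, SE 0.05, adjusted p = 0.00362). Bmf, Mcl1, Bak1, Suv39h1, Sgpl1, Mapk14 and Bcl2l2 were the others, at -0.60 to -0.32. The lipid receptor gene S1pr1 was the one called higher, by 0.39 (SE 0.09, adjusted p = 0.0372), from -0.09 with IL-7 (adjusted p = 0.724) and 0.88 without (adjusted p = 0.0226). With IL-7, 5 of the 35 were called lower and 1 higher, against 1.46% and 1.13% of all genes, and without IL-7 9 and 1, against 3.47% and 2.95%. Over the alternatives this list's calls in either direction ran from 0 to 10 with IL-7, from 0 to 13 without and from 7 to 17 in the average. The higher gene with IL-7 was Lifr, whose probe was well above background on only 2 arrays. Under the filter on dim probes these are both arrays of 1 group, so its call is no evidence of a rise. None of these directions turned under the other scalings, although with the median as scale Bak1, Bcl2l2, Bmf, Mapk14, Sgpl1 and Suv39h1 did not pass, nor did Bcl2l2 in the values the authors deposited. The lists were drawn up with results of these data known, so these counts are no independent evidence of a direction.

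Among paralogues of the 10 genes, 1 was called lower and 1 higher in the average. Among 12 partners of their proteins, 1 was called lower and 2 higher. The shares over all genes were 8.55% lower and 7.25% higher in the average, 1.46% and 1.13% with IL-7, and 3.47% and 2.95% without. Of 17 paralogues 15 were measured, with 0 calls in either IL-7 condition, which is near these shares. In the average, 1 was lower, Stat6 (-0.22, adjusted p = 0.0402), and 1 higher, Stat5a (0.28, adjusted p = 0.0428), a transducer of IL-7 signals, and the median was -0.09. Trp53inp2 (-0.17, adjusted p = 0.288), Arid3b (0.24, adjusted p = 0.228), Abtb2 (0.18, adjusted p = 0.274), Ets2 (0.08, adjusted p = 0.435) and Ppp2cb (0.20, adjusted p = 0.0984) did not pass. On withdrawal, which cannot be told apart from the slide, 5 of the 15 paralogues were called lower and 4 higher in control cells, and 5 and 5 in miR-125b cells. The shares of all genes were 34.2% and 20%, and 32.1% and 20.3%. Trp53inp2 rose, as Trp53inp1 did, by 1.04 in control cells (adjusted p = 0.00247) and by 1.18 in miR-125b cells (adjusted p = 0.00236). Ets2 fell by 0.40 and 0.27 (adjusted p = 0.012 and 0.0448), unlike the probe that represents Ets1. Of the 12 partners, Asxl2, a cofactor of BAP1, was lower in the average (-0.28, adjusted p = 0.0275). Il6st, the gp130 receptor subunit upstream of STAT3, was higher (0.86, SE 0.12, adjusted p = 0.0123), as was the kinase gene Jak1 (0.24, adjusted p = 0.0375). Of the partners, Il6st alone was called within a condition, by 1.16 without IL-7 (adjusted p = 0.026). With the median as scale, Stat6 and Asxl2 did not pass. The RUNX genes that bind CBFB gave 0.14 for Runx1 (adjusted p = 0.235), -0.19 for Runx3 (adjusted p = 0.107) and -0.60 for Runx2 (adjusted p = 0.286), whose probe was well above background on only 3 arrays.

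**Figure D5:**
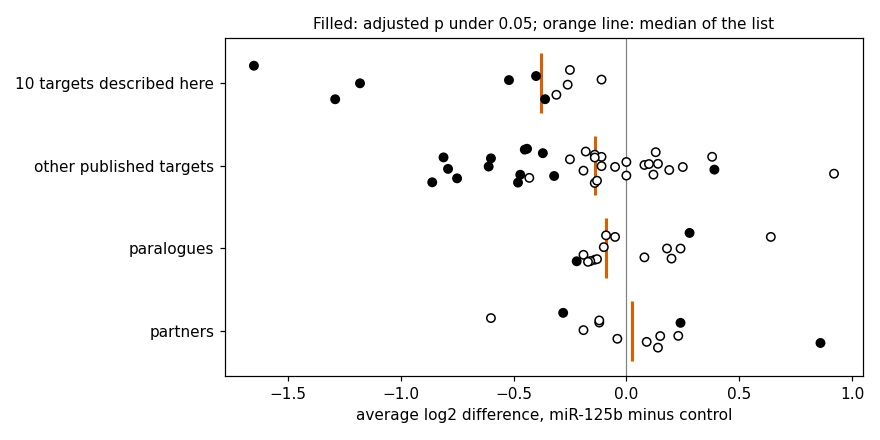
Average log2 difference between miR-125b and control cells (x axis) for the measured genes of 4 lists (y axis, points spread vertically at random); filled points have an adjusted p under 0.05 and orange lines are the medians. The medians are -0.38 for the 10 genes, -0.14 for the other published targets, -0.09 for the paralogues and 0.02 for the partners.

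The genes closest in pattern to each of the 6 called targets were sought among 11873 genes with a symbol and signal on all 8 arrays, by Pearson's r over the 8 arrays after subtraction of each condition's mean. With 4 arrays of each vector on fixed positions of 2 slides, such an r is set largely by the difference between vectors, and 460 to 655 genes had an r above 0.95 with a given target. For Trp53inp1 the closest were Tapbpl, Map3k11 and E2f2 (r = 0.9996, 0.9994 and 0.9978). Arid3a was closest to Trp53inp1, Abi3 and Dennd6a, and Abtb1 to Trim26, Ppp3ca and Fmr1. Cbfb and Klf13 were among the closest to each other (r = 0.9983), Cbfb with Fmr1 and Cd47, and Klf13 with Cecr2 and Zbtb7a. Ets1 was closest to Baz1b, Zfp703 and Cep295.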

How the data were processed

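RNA from 8 samples was labelled with Cy3 (100 ng total RNA each) and hybridised to 8 arrays. Per the file headers, the processed signal is an intensity on a linear scale, detrended, background-subtracted and not normalized between arrays, and the mean signal and local background are intensity values too. The deposited files also hold marks of 0 or 1 per spot, which are values of another kind. The submitters' processing notes name Agilent Feature Extraction 10.7.1.1 throughout, whereas the headers of the arrays with IL-7 name a later version. A further table of linear intensity values that the authors deposited has a median of 21.7 in each array and r of at least 0.999 with the scanner signal; its normalization is not given in the sources used here. Its columns and those of the scanner files include 0 of other series.

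Of 62976 spots 3671 controls were left out, spots of a probe averaged (55681 probes) and 58 probes that were not uniform dropped. Values are log2 processed signal minus the log2 75th percentile of the array. The filter on dim probes kept those well above background in both arrays of any group, and the brightest represents its gene. Gene names were updated through RefSeq (27235 probes by accession, 3581 by symbol, 565 by synonym; 24300 kept the name in the files), and 16% of probes are named differently in the 2 versions of the grid. limma 3.58.1 (lmFit, eBayes) under R 4.3.3 fitted 4 group means over all 8 arrays (4 residual and 1.82 prior degrees of freedom, prior SD 0.11), with two-sided p and Benjamini-Hochberg over all genes, or over all kept probes for single probes. The number of arrays, 2 per group, limits the precision; the scripts were tested on simulated data. Whether same-numbered replicates of different groups came from the same experiment is not given in the sources used here. Their deviations correlated little (r from -0.098 to 0.113), which does not settle it. No pairing was used, and the block is an alternative only. The genes and all lists were chosen with earlier results of these data known; named are the 10 genes, called genes of the other lists, and the 3 genes of highest r with each called target. A few list members that were not called were also named after their values were seen. A few items are not reported here.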

Additional observations from a re-analysis of the deposited data

How the results depend on the processing

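Counts of called genes moved more with the settings than the differences themselves did. For miR-125b with IL-7, where 535 genes and 5 of the 10 targets were called, a fit on only the 4 arrays compared gave 0 genes and 0 targets, no filter on dim probes 1 and 0, median scaling 220 and 3, and the replicate number as a block 17 and 3. Normexp with quantile normalization gave 1080 genes, a mean-variance trend 1489, and a filter on signal in all arrays, chosen after seeing the data, 913. Without IL-7 (1328 genes, 4 targets) the same 4-array fit gave 496 genes, no filter 604, the median 849, the block 454, normexp 2724 and 8 targets, the deposited values 2066, and the trend 2623 and 9 targets. In the average (3267 genes) no filter gave 1385 and the block 2172. The block changed no other count by over 1.5 times. Whether same-numbered replicates share more than a number is not known. On withdrawal in control cells (4 targets) the median and the trend each gave 7 targets, and in miR-125b cells (6 targets) 4 arrays gave 3 and no filter 2. For the difference in response (0 genes) the median gave 1 gene, normexp 5, the deposited values 1 and the trend 1. Leaving out 1 array gave 3 to 215 genes and 0 to 3 targets with IL-7, 9 to 1011 and 0 to 4 without, 954 to 2583 and 4 to 6 in the average, 7253 to 11022 and 3 to 5 on withdrawal in control cells, 7229 to 10619 and 2 to 6 in miR-125b cells, and 0 to 92 genes and 0 targets for the difference in response.

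Directions turned as follows. With median scaling, Ppp2ca had a miR-125b effect of 0.14 without IL-7 and 0.03 in the average, withdrawal gave -0.16 in control and -0.20 in miR-125b cells for Arid3a and -0.14 and -0.07 for Ets1, and the difference in response of Ets1 was 0.06. With normexp, withdrawal in control cells gave 0.19 for Cbfb, 0.14 for Klf13, 0.28 for Mknk2 and 0.04 for Bap1, and in miR-125b cells 0.21 for Cbfb, -0.12 for Ets1, 0.26 for Klf13, 0.13 for Mknk2, 0.01 for Bap1 and 0.01 for Ppp2ca. In the deposited values it gave 0.27 and 0.30 for Cbfb, 0.07 and 0.14 for Klf13 and 0.24 and 0.07 for Mknk2. With the mean of all probes of a gene, withdrawal gave 0 for Ets1 and 0.19 for Klf13 in control cells and -0.03 for Arid3a, -0.09 for Ets1 and 0.14 for Klf13 in miR-125b cells, and the difference in response was 0.01 for Stat3, -0.05 for Klf13 and -0.02 for Ppp2ca. Without miR-125b with IL-7 replicate 1, withdrawal gave 0.02 for Klf13 in miR-125b cells. The difference in response of Ets1 was 0.01 without that array, 0.01 without control replicate 2 and 0.07 without miR-125b replicate 1 of the condition lacking IL-7. The order of Trp53inp1 in miR-125b cells without IL-7 and control cells with IL-7 turned with normexp (0.04) and in the deposited values (0.07). The cause of these changes was not tested.

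Scaling moved the balance of all called genes. The share called higher in the average was 45.9% with the 75th percentile, 77.2% with the median, 52% with normexp and 52.7% in the deposited values, and the median of all genes was -0.03 with the 75th percentile and 0.12 with the median. With IL-7 the shares were 43.6%, 61.4%, 53.9% and 49.1% in that order, without it 45.9%, 78.2%, 51.3% and 53.2%, on withdrawal in control cells 36.9%, 16.7%, 46.5% and 45.8%, and in miR-125b cells 38.7%, 21.6%, 47.8% and 48.1%. Relative to the median scale's shift of all genes by -0.46 and -0.36 on withdrawal, Abtb1 at 0.16 and 0.36 still lay above it. The slide as a block was not run: it leaves the vector comparisons as they are, and withdrawal lies between slides. Signal over background limits the dim probe of Klf13, which bears no fold.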
